A study of Macaca mulatta with 136 samples.

Results

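Cone phototransduction genes are the genes whose products carry the light response of cone photoreceptors, from the activated opsin to the closing of the membrane channel and back. The set described here held 8 genes, taken by their symbols as deposited, out of 19422 genes measured: the transducin subunits GNAT2 (ENSMMUG00000005819) and GNGT2 (ENSMMUG00000042422), the phosphodiesterase PDE6C (ENSMMUG00000014713), the channel subunits CNGA3 (ENSMMUG00000021187) and CNGB3 (ENSMMUG00000017889), the exchanger SLC24A2 (ENSMMUG00000020651), the opsin kinase GRK7 (ENSMMUG00000007387) and the cone arrestin ARR3 (ENSMMUG00000013935). The choice was by function and not by a measured threshold, with earlier results of these data known, and each symbol had a single entry. The tissue came from postmortem eyes of 2 adult rhesus macaques (RM03 and RM04), 4 eyes in all, with no treatment in any group. From each eye a punch with a diameter of 2 mm was taken at the fovea/macula (called the fovea here), at the perimacula, in the nasal retina and in the periphery, and each punch was separated by microdissection into neural retina and RPE/choroid, the retinal pigment epithelium together with the vascular choroid under it. The result was 32 RNA-seq libraries, with 4 eyes per location and tissue. The replicates were 4 eyes but only 2 animals, so that the tests measured the spread between eyes after the mean difference between the animals was removed.

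In the dark, channels in the cone outer segment that are held open by cyclic GMP let sodium and calcium in. A light-activated opsin switches on transducin, transducin releases the phosphodiesterase to break down cyclic GMP, and the channels close. The response ends when the kinase tags the opsin, arrestin covers it and the exchanger has lowered calcium enough for the guanylate cyclases to restore cyclic GMP. Rods use the same steps with, for most of them, a separate set of genes. The fovea is the part of the primate retina where cones are packed most densely, and inherited defects of CNGA3, CNGB3, GNAT2 or PDE6C cause achromatopsia, the loss of cone vision.

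Levels are given as CPM, the estimated counts of a gene scaled to a library size common to all libraries, after TMM normalization, which corrects for differences in composition. Values of 4 eyes are listed in a fixed order, the right and left eye of RM03 and then the right and left eye of RM04. Levels were not divided by transcript length, so that they were compared between libraries and not between genes. The libraries held 42448903 to 78574055 estimated counts, and the 8 genes had 1308 to 95308 estimated counts each in a retina library. In RPE/choroid they had 9 to 19933. Rod markers (9 genes) summed to 4013 to 28040.0 CPM in the retina libraries and to 50.1 to 924 in RPE/choroid, and pigment epithelium markers (8 genes) to 103 to 743 CPM in retina and to 10170.0 to 19150.0 in RPE/choroid, so that the markers matched the labelled tissues. A retina library stood apart at the perimacula, the left eye of RM04, with the lowest rod marker mean (9.65 log2 CPM, against 10.2 to 10.3 in the other perimacula libraries) and the highest perimacula value of 7 of the 8 genes. Without it, each of the 8 genes that was called between the retina perimacula and another location remained called in the same direction. The periphery libraries were sequenced on a flow cell of their own, and the periphery and its flow cell cannot be told apart.

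In neural retina, 7 of the 8 genes were higher at the fovea than at the periphery, and all 8 were higher at the fovea than at the perimacula and than at the nasal location. The median log2 fold change of the 8 genes was 1.18 against the periphery, 0.72 against the perimacula and 0.81 against the nasal location. Over all genes tested the corresponding medians were −0.056, 0.0080 and −0.037. Differences were tested with edgeR's quasi-likelihood test and called at an adjusted p under 0.05, with Benjamini-Hochberg adjustment over all genes tested. Log2 fold changes of single genes are given ± the standard error from the fit. Of all genes tested, 31% were called higher at the fovea than at the periphery, 19% higher than at the perimacula and 25.1% higher than at the nasal location. In a bulk sample, fewer cells of a type and less RNA per cell cannot be told apart, so that none of these values separates the number of cones in a punch from the RNA that each cone held. Rod markers were lower and ganglion cell markers higher at the fovea: the rod marker mean ran from 8.26 to 8.53 log2 CPM at the fovea and from 10.7 to 10.96 at the periphery, and all 9 were called lower at the fovea, where 36% of all genes were. The mean of the 8 ganglion cell markers ran from 8.74 to 8.83 at the fovea and from 4.03 to 5.399 at the periphery, and all 8 were called higher at the fovea. As CPM are shares of a total, the part of these shifts in the values of the cone genes was not tested.

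**Figure D1:**
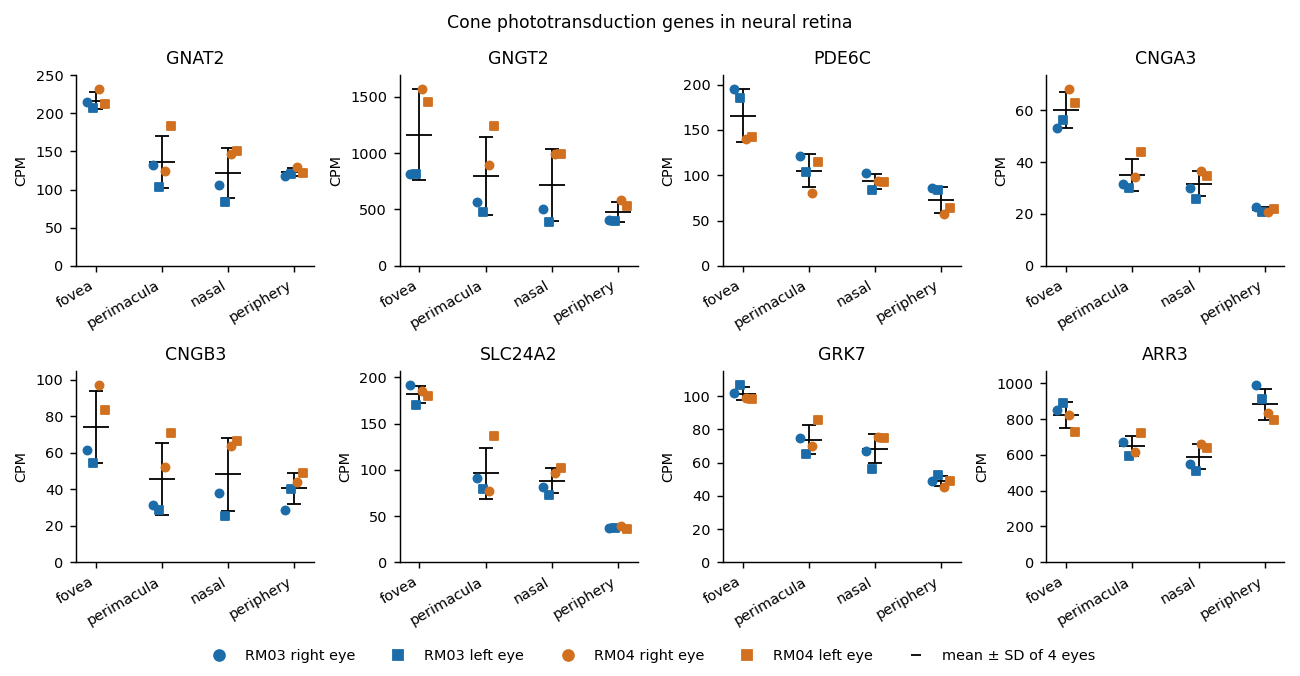
CPM of the 8 genes (vertical axes, a scale for each gene, starting at 0) in neural retina at the 4 locations, with a point per eye, color for the animal and shape for the right or left eye, and the black bars giving mean ± SD of 4 eyes. The means of CNGA3, SLC24A2, GRK7, PDE6C and GNGT2 step down from fovea to periphery. GNAT2 is highest at the fovea with no overlap. CNGB3 has its highest mean at the fovea, where its eyes overlap with those of the perimacula and the nasal location. ARR3 is as high at the periphery as at the fovea.

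Both transducin genes were called higher at the fovea than at each other location, and a difference between their courses was not tested. GNAT2, the alpha subunit of cone transducin that binds GTP and activates the phosphodiesterase, was at 214, 207, 232 and 213 CPM at the fovea, 132, 103, 125 and 183 at the perimacula, 106, 83.97, 147 and 150.2 in the nasal punches and 118, 121, 130.2 and 121 at the periphery. The lowest foveal eye stood above every eye at the other locations. The level was 1.83-fold higher at the fovea than at the periphery (log2 fold change 0.87 ± 0.13, adjusted p = 8.20e-05) and 1.67-fold higher than at the perimacula (log2 fold change 0.74 ± 0.13, adjusted p = 0.00124). Outside the fovea no difference was called. The log2 fold change over the periphery was 0.14 ± 0.13 at the perimacula and −0.029 ± 0.14 at the nasal location (adjusted p = 0.405 and 0.879). GNGT2, the gamma subunit of cone transducin, was at 815, 813, 1569.8 and 1455 CPM at the fovea, 564, 479.6, 897 and 1238 at the perimacula, 505, 389.6, 989 and 994 in the nasal punches and 405, 395, 582 and 528 at the periphery. Both eyes of RM04 lay above both eyes of RM03 at each location, and the eyes of the fovea and of the perimacula overlapped, while within each animal both foveal eyes were above both perimacula eyes. The fovea was 2.43-fold above the periphery (log2 fold change 1.28 ± 0.13, adjusted p = 4.46e-06) and 1.54-fold above the perimacula (log2 fold change 0.62 ± 0.13, adjusted p = 0.00356), and the perimacula was 1.58-fold above the periphery (log2 fold change 0.66 ± 0.13, adjusted p = 0.00145). Without the animal in the fit, the difference between fovea and perimacula was not called (adjusted p = 0.178), nor were those between fovea and nasal location (0.107), perimacula and periphery (0.0767) and nasal location and periphery (0.195). The last was also lost without the right eye of RM04 (adjusted p = 0.0676).

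PDE6C, the catalytic subunit of the cone phosphodiesterase that breaks down cyclic GMP, was at 196, 186, 139.5 and 142 CPM at the fovea, 121, 104, 80.2 and 115 at the perimacula, 103, 83.5, 93.7 and 92.8 in the nasal punches and 86.4, 83.3, 57.3 and 63.4 at the periphery. All 4 foveal eyes were above all other retina libraries, and RM04 was below RM03 at the fovea and at the periphery. The foveal level was 2.38-fold that of the periphery (log2 fold change 1.25 ± 0.12, adjusted p = 1.85e-06), 1.62-fold that of the perimacula (log2 fold change 0.70 ± 0.11, adjusted p = 0.000866) and 1.801-fold that of the nasal location (log2 fold change 0.85 ± 0.12, adjusted p = 2.47e-05). The nasal location was also above the periphery (log2 fold change 0.40 ± 0.12, adjusted p = 0.01104), a call that was lost when an eye other than the left eye of RM03 was left out (adjusted p = 0.0538 to 0.0876) or when the animal was left out of the fit (adjusted p = 0.0704).

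Of the subunits of the cone channel, CNGA3 was called between the perimacula and the periphery and CNGB3 was not. CNGA3, the subunit that can form the cyclic GMP-gated channel by itself, was at 52.97, 56.2, 68.3 and 62.8 CPM at the fovea, 31.5, 30.1, 34.3 and 43.7 at the perimacula, 29.9, 25.7, 36.6 and 34.4 in the nasal punches and 22.8, 20.7, 20.8 and 21.96 at the periphery. The eyes of the fovea lay above and those of the periphery below every eye of the other locations. CNGA3 was 2.87-fold higher at the fovea than at the periphery (log2 fold change 1.52 ± 0.10, adjusted p = 2.08e-07) and 1.602-fold higher at the perimacula than at the periphery (log2 fold change 0.68 ± 0.10, adjusted p = 0.000196). CNGB3, the subunit that joins CNGA3 in the channel and modifies its properties, was at 61.6, 54.4, 97.1 and 83.4 CPM at the fovea, 31.3, 28.4, 52.2 and 70.6 at the perimacula, 37.8, 25.4, 63.7 and 66.4 in the nasal punches and 28.9, 39.9, 43.98 and 48.99 at the periphery. The foveal eyes were above all periphery eyes but overlapped with the perimacula and nasal eyes, where RM04 was again above RM03. CNGB3 was 1.87-fold higher at the fovea than at the periphery (log2 fold change 0.90 ± 0.15, adjusted p = 0.000241). No difference was called between the perimacula and the periphery (log2 fold change 0.10 ± 0.15, adjusted p = 0.606). Without the animal in the fit, its differences between the fovea and the perimacula and between the fovea and the nasal location were not called (adjusted p = 0.0773 and 0.123). Without the left eye of RM03, CNGB3 was called higher at the nasal location than at the periphery (log2 fold change 0.47, adjusted p = 0.00859). The difference in course between both genes was not tested.

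SLC24A2, the sodium, calcium and potassium exchanger that clears calcium from the cone outer segment and that brain neurons also express, had the largest fold change of the 8 genes. It was at 192, 170.3, 185 and 179.6 CPM at the fovea, 90.7, 79.6, 77.6 and 136 at the perimacula, 81.2, 72.4, 96.7 and 102 in the nasal punches and 36.9, 37.2, 38.8 and 36.2 at the periphery. The foveal and the peripheral eyes each lay outside the range of all other retina libraries, and the 4 periphery eyes were within 36.2 to 38.8 CPM. The fovea was 5.05-fold above the periphery (log2 fold change 2.34 ± 0.16, adjusted p = 1.96e-07), 1.97-fold above the perimacula (log2 fold change 0.98 ± 0.15, adjusted p = 0.000586) and 2.13-fold above the nasal location (log2 fold change 1.09 ± 0.13, adjusted p = 8.74e-06). The perimacula was 2.56-fold above the periphery (log2 fold change 1.36 ± 0.15, adjusted p = 2.79e-05). The ganglion cell markers, whose log2 fold changes between fovea and periphery ran from 2.67 to 4.73, moved in the same direction, and their part in the level of SLC24A2 was not tested.

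Of the kinase and the arrestin that end the light response, GRK7 was called between fovea and periphery and ARR3 was not. A difference between both genes was not tested. GRK7, the kinase that phosphorylates the activated cone opsin, was at 102, 107, 98.9 and 98.4 CPM at the fovea, 74.7, 65.2, 70.2 and 85.5 at the perimacula, 67.2, 56.4, 75.3 and 74.7 in the nasal punches and 48.97, 52.8, 45.6 and 48.7 at the periphery. Its 4 foveal eyes were above and its 4 periphery eyes below all others. GRK7 was 2.15-fold higher at the fovea than at the periphery (log2 fold change 1.10 ± 0.091, adjusted p = 8.01e-07) and 1.43-fold higher than at the perimacula (log2 fold change 0.51 ± 0.091, adjusted p = 0.001299). ARR3, the cone arrestin that binds the phosphorylated opsin, was at 852, 891, 820.2 and 725 CPM at the fovea, 673, 592, 614 and 719.9 at the perimacula, 549, 510.3, 659 and 638 in the nasal punches and 989.5, 914, 836 and 795 at the periphery. The ranges of fovea and periphery overlapped, both lay above those of the perimacula and the nasal location, and the 4 locations therefore did not form a gradient. The difference between fovea and periphery was not called (log2 fold change −0.049 ± 0.092, adjusted p = 0.657), and its sign changed when the right eye of RM03 was left out (log2 fold change 0.015). ARR3 was 1.35-fold higher at the periphery than at the perimacula (log2 fold change of perimacula over periphery −0.44 ± 0.092, adjusted p = 0.00202) and 1.49-fold higher than at the nasal location (log2 fold change of nasal location over periphery −0.57 ± 0.10, adjusted p = 0.000295). The fovea was 1.43-fold above the nasal location (log2 fold change 0.52 ± 0.10, adjusted p = 0.000518) and 1.31-fold above the perimacula (log2 fold change 0.39 ± 0.092, adjusted p = 0.00665). The last difference was not called without the right eye of RM03, the left eye of RM03 or the right eye of RM04 (adjusted p = 0.0578, 0.0732 and 0.0642).

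**Figure D2:**
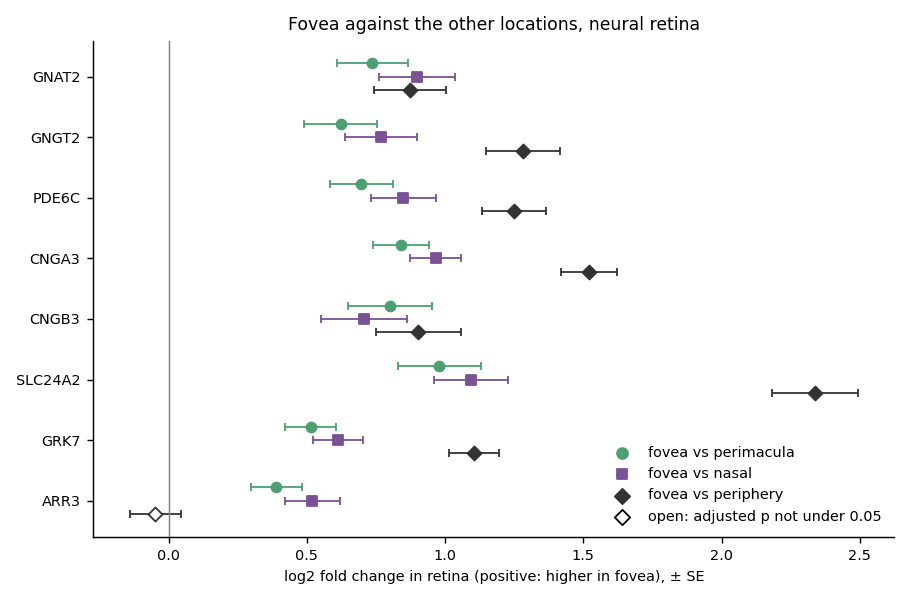
Log2 fold change of the fovea over each of the other 3 locations in neural retina (horizontal axis, positive values higher at the fovea) for each of the 8 genes, with bars of ± 1 SE from the fit and open symbols where the adjusted p was not under 0.05. The values against the periphery run from −0.049 for ARR3 to 2.34 for SLC24A2.

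By their eyes, 7 of the 8 genes had all 4 foveal libraries above all 4 periphery libraries, where 23.6% of all genes tested did. All 4 foveal libraries were above all 4 perimacula libraries for 6 genes, against 13.5% of all genes, and above all 4 nasal libraries for 6 genes, against 20.4%. CNGB3 and GNGT2 were the genes that overlapped in both, and ARR3 the gene that overlapped with the periphery. Away from the fovea, the perimacula was called higher than the periphery for PDE6C, CNGA3, GNGT2, GRK7 and SLC24A2 and lower for ARR3, where 50.3% of all genes were called in either direction. The nasal location differed from the periphery in the same 6 genes and the same directions, where 48.7% of all genes were called. Between the perimacula and the nasal location none of the 8 genes was called with edgeR or DESeq2, none had an unadjusted p under 0.05, and 1.49% of all genes were called. Those log2 fold changes ran from −0.087 for CNGB3 to 0.16 for GNAT2.

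The members moved together to different degrees over the 16 retina libraries, which share their location and animal, so that the correlations describe these libraries alone. On the log2 CPM scale the highest Pearson r was 0.978, between GRK7 and SLC24A2, and CNGA3 had 0.966 with GRK7 and 0.961 with SLC24A2. CNGB3 and GNGT2, the genes with the largest gap between animals, had 0.931 with each other. The subunits of the same channel, CNGA3 and CNGB3, had 0.738. ARR3 had r between −0.124 with SLC24A2 and 0.490 with GNAT2. Of 9809 other genes that averaged 3 log2 CPM or more in retina, the 5 whose level was most like the mean of the 8 genes were NAPB (0.974), TBC1D4 (0.973), BPGM (0.972), NEDD4L (0.972) and BACH1 (0.97). Their median levels at the fovea were 618 CPM for NAPB, 40.3 for TBC1D4, 79.8 for BPGM, 143 for NEDD4L and 26.3 for BACH1, against 285, 15.2, 37.7, 44.9 and 16.8 at the periphery.

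The levels of the animals were compared for each of the 8 genes. GNGT2 in RM04 was 1.39 to 2.22 times its level in RM03 over the 4 retina locations, and CNGB3 1.35 to 2.06 times. For both genes the eyes of the animals did not overlap at any of the 4 locations. Such separation in the same direction at all 4 locations was seen in 18.5% of all genes tested. The 2 of the 8 genes were near that share, and the count is no trait of the set. The gap was smallest at the periphery for both, 1.39 times for GNGT2 and 1.35 times for CNGB3. PDE6C, ARR3 and GRK7 went the other way at the fovea and at the periphery, with both eyes of RM04 below both of RM03 at each, as in 17.4% of all genes tested. The level in RM04 was 0.739 and 0.711 times that in RM03 for PDE6C, 0.887 and 0.856 times for ARR3 and 0.945 and 0.927 times for GRK7. At the nasal location 7 of the 8 genes were higher in both eyes of RM04, by 1.21 times for GRK7 to 2.22 times for GNGT2, and the eyes overlapped for PDE6C. Of all genes tested, 32.9% had both eyes of RM04 above both of RM03 there. With 2 animals there is no test of such a difference.

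Most of 20 other genes of the light response and of photoreceptors were lower at the fovea, opposite to 7 of the 8 cone genes. Among the 20 are a transducin subunit, the cyclases, their activators and genes of the recovery from light and the release of transmitter. Of the 20 genes, 2 were called higher and 15 lower at the fovea than at the periphery. Of all genes, 31% were called higher and 36% lower. The median log2 fold change of the 20 genes was −0.87. Most of these genes are used by rods and cones alike or mainly by rods. The genes that rose were GUCA1C, a calcium-dependent activator of the cyclases, and GNB3, the beta subunit of cone transducin. GNB3 was at 954, 1009.5, 958 and 876 CPM at the fovea and 870.5, 916, 644 and 576 at the periphery (log2 fold change 0.41 ± 0.10, adjusted p = 0.00337). The eyes overlapped, in contrast to those of GNAT2 and GNGT2, the other subunits of the same protein. GUCA1C was at 205, 194, 183 and 189 CPM at the fovea and 129.8, 142, 118 and 110.5 at the periphery, with no overlap (log2 fold change 0.68 ± 0.11, adjusted p = 0.000174). The largest falls were those of GUCY2F, a photoreceptor guanylate cyclase (log2 fold change −2.22 ± 0.11, adjusted p = 5.94e-08), and of CABP4, a calcium-binding protein of the photoreceptor synapse (log2 fold change −1.92 ± 0.12, adjusted p = 1.25e-07). Of the transcription factors of cones, RXRG rose from 51.02, 37.6, 58.4 and 44.8 CPM at the periphery to 179, 168, 165 and 164 at the fovea (log2 fold change 1.88 ± 0.17, adjusted p = 1.22e-06). THRB, the thyroid hormone receptor gene that shapes cone identity in development, was at 40.5, 37.2, 39.7 and 37.6 CPM at the fovea and 37.9, 41.7, 31.8 and 34.2 at the periphery. That difference was not called (log2 fold change 0.15 ± 0.084, adjusted p = 0.141).

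The rod counterparts of the cone genes were lower at the fovea than at the periphery. The 8 genes SAG, GNGT1, PDE6A, PDE6B, CNGA1, CNGB1, SLC24A1 and GNB1 were all called lower, with log2 fold changes from −2.99 for SAG, the rod arrestin, to −1.64. GRK1, the rhodopsin kinase that cones also use, is the rod counterpart of GRK7 and was called lower as well (log2 fold change −1.51 ± 0.24, adjusted p = 0.000169). Dividing a cone gene by its rod counterpart in the same library gives a value that does not depend on the library's total. For 8 such pairs, formed with GRK1 and without GNB1, the ratio was higher at the fovea than in all 12 other retina libraries. The ratio takes in the fall of the rod gene as well as any change of the cone gene. Between fovea and periphery the median log2 fold change was −2.195 for the 8 genes from SAG to GNB1 and 1.18 for the 8 cone genes. ARR3 over SAG had a mean log2 ratio of −0.78 ± 0.25 (SD, n = 4 eyes) at the fovea, −2.85 ± 0.39 at the perimacula, −3.28 ± 0.096 in the nasal punches and −3.72 ± 0.19 at the periphery. The ratio of ARR3 to SAG thus fell 7.702-fold from fovea to periphery although ARR3 itself was not called between these locations. SAG was at 1409 ± 142 CPM (SD, n = 4 eyes) at the fovea and 11612 ± 428 at the periphery. GNGT2 over GNGT1, the gamma subunit of rod transducin, was the pair with the largest change, 19.3-fold between fovea and periphery, followed by SLC24A2 over the rod exchanger SLC24A1 with 16.2-fold. PDE6C changed 13.1-fold against PDE6B and 9.31-fold against PDE6A, the subunits of the rod phosphodiesterase. For the channels the change was 13.1-fold for CNGA3 over CNGA1 and 8.70-fold for CNGB3 over CNGB1. GRK7 over GRK1 changed 6.02-fold. The median over the 8 pairs was −0.97 ± 0.23 at the fovea, −3.33 ± 0.49 at the perimacula, −3.70 ± 0.095 in the nasal punches and −4.68 ± 0.072 at the periphery (SD, n = 4 eyes).

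**Figure D3:**
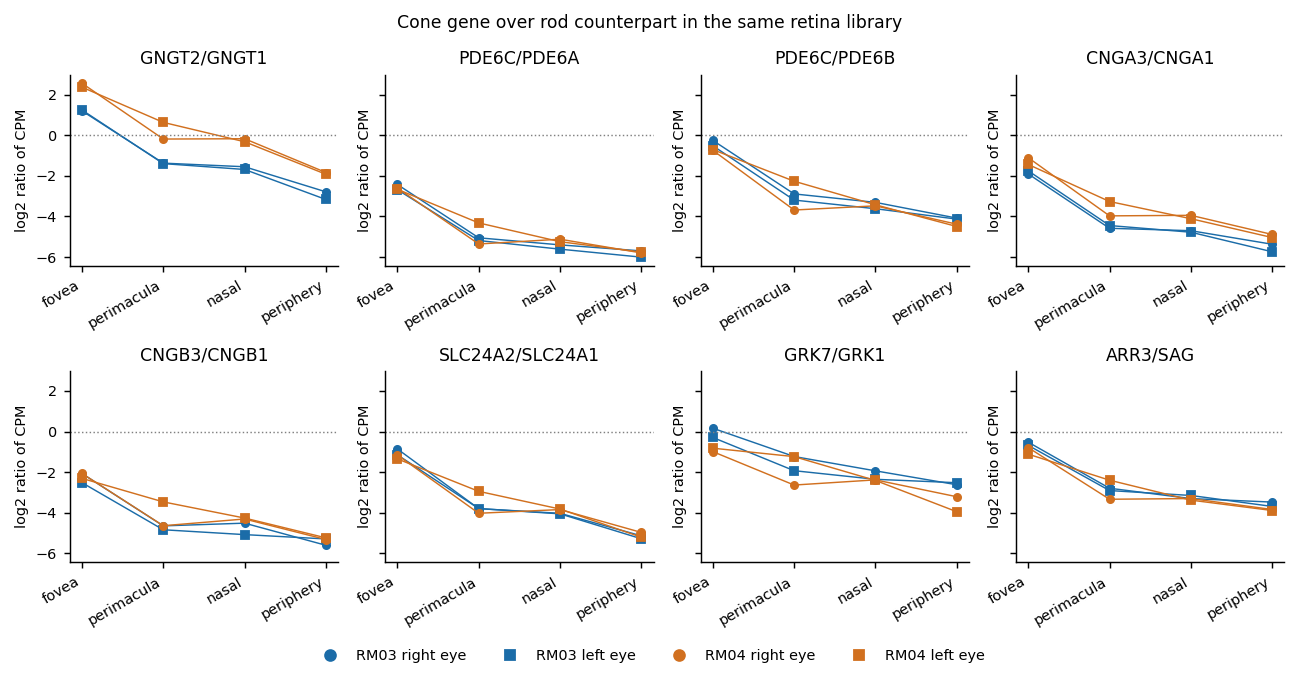
Log2 ratio of the CPM of a cone gene to that of its rod counterpart in the same retina library (vertical axis) at the 4 locations, with a line per eye and a dotted line where both levels are equal. In all 8 pairs each of the 4 foveal points lies above all 12 other points, and the change from fovea to periphery runs from 6.02-fold for GRK7 over GRK1 to 19.3-fold for GNGT2 over GNGT1.

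In RPE/choroid, a tissue with no cone cell bodies, 7 of the 8 genes were measured at a small part of the retina level, and CNGB3 was higher than in retina. Libraries of both tissues were sequenced in the same lanes. The part of retina RNA, or of reads assigned to the wrong library, in the RPE/choroid levels was not tested. All 8 genes were called between the tissues at each of the 4 locations, where 75.5% of all genes were called at the fovea, 76.7% at the perimacula, 76.2% in the nasal punches and 75.7% at the periphery. The RPE/choroid library of an eye and location held a median of 0.907% of the retina CPM for ARR3, 1.15% for GNAT2, 1.06% for PDE6C, 0.851% for GNGT2, 0.602% for GRK7, 1.88% for SLC24A2 and 3.95% for CNGA3, over 16 pairs of libraries. The rod markers measured the same way had medians of 0.474% for PDE6A to 3.51% for SLC24A1, so that 6 of the 7 cone genes were within the range of the rod markers and CNGA3 was above it. The highest share of any of the 7 was 15.6%, for CNGA3. At the fovea their log2 fold changes of retina over RPE/choroid ran from 4.81 ± 0.31 for CNGA3 (adjusted p = 1.42e-13) to 6.43 ± 0.57 for GRK7 (adjusted p = 7.74e-11).

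CNGB3 was at 221, 168, 423 and 385 CPM in foveal RPE/choroid, 73.1, 127, 133 and 279 at the perimacula, 321, 271, 363 and 349 in the nasal punches and 190.3, 27.1, 78.3 and 181 at the periphery. The retina library of the same eye and location was lower in 15 of 16 pairs, the exception being the left eye of RM03 at the periphery, and the median share was 416%. CNGB3 in RPE/choroid was 3.902-fold above retina at the fovea (log2 fold change of retina over RPE/choroid −1.96 ± 0.37, adjusted p = 3.05e-05), 3.35-fold at the perimacula (−1.74 ± 0.37, adjusted p = 0.000123), 7.196-fold at the nasal location (−2.85 ± 0.38, adjusted p = 1.96e-07) and 2.995-fold at the periphery (−1.58 ± 0.37, adjusted p = 0.000354). CNGA3, its partner in the cone channel, was at 0.896 to 4.98 CPM in the same 16 libraries. Over those libraries the log2 CPM of CNGB3 had a Pearson r of 0.797 with the mean of the 8 pigment epithelium markers and 0.0913 with that of the rod markers. SLC24A2 also had the higher r with the pigment epithelium markers (0.701, against 0.341 with the rod markers). The other 6 genes had r from −0.00871 for PDE6C to 0.242 for ARR3 with the pigment epithelium markers and from 0.342 for PDE6C to 0.835 for ARR3 with the rod markers. The points share their animals and locations, and these values describe them with no test. RPE65, the isomerase of the visual cycle in the pigment epithelium and 1 of the 8 markers, was taken for comparison after its values were seen. The 8 markers did not move as one in RPE/choroid. At the fovea 1 was called higher and 2 lower than at the periphery, where 44.1% of all genes were called. At the perimacula 3 were called higher and 0 lower than at the nasal location, where 3.07% of all genes were called. CNGB3 had a log2 fold change of −1.18 ± 0.47 there (adjusted p = 0.175). RPE65 ran from 482 to 8597 CPM, with the lowest value in the periphery library of the left eye of RM03, which was also the lowest in CNGB3. The CPM of CNGB3 was between 2.99% and 5.77% of that of RPE65 in each RPE/choroid library (r of 0.959 on the log2 scale) and between 18.2% and 158% in the retina libraries. The 2 genes differ in transcript length, so that this ratio is read between libraries alone. In retina RPE65 was at 53.3, 98.6, 63.2 and 52.7 CPM at the fovea and 119, 219, 113 and 154 at the periphery. It was called lower at the fovea (log2 fold change −1.13 ± 0.27, adjusted p = 0.00262), where CNGB3 was called higher. The part of pigment epithelium RNA in the retina level of CNGB3 was not tested.

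**Figure D4:**
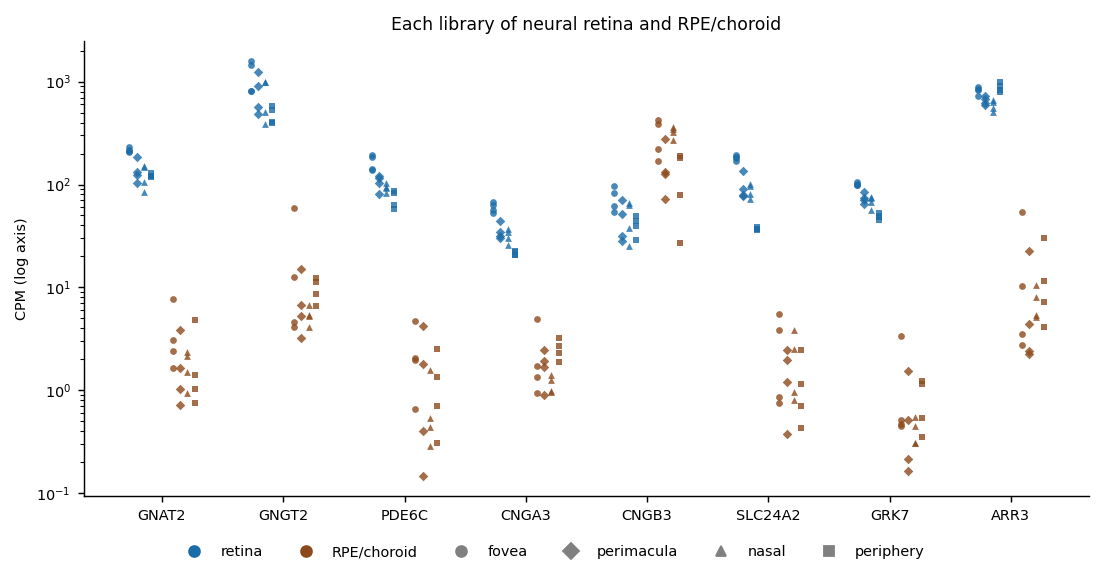
CPM of the 8 genes on a log axis in the 16 libraries of neural retina and the 16 of RPE/choroid, with color for the tissue and shape for the location. For 7 genes all RPE/choroid points lie below all retina points, while for CNGB3 the RPE/choroid points run from 27.1 to 423 CPM, mostly above the retina points.

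**Figure D5:**
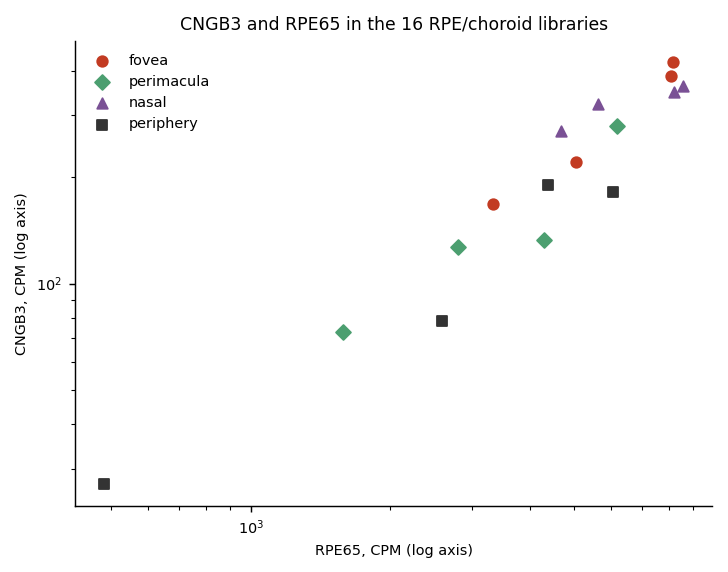
CPM of CNGB3 (vertical log axis) against that of RPE65 (horizontal log axis) in the 16 RPE/choroid libraries, with color and shape for the location. The points rise together from 482 CPM of RPE65 and 27.1 CPM of CNGB3 at the lower left.

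Between locations within RPE/choroid few of the 8 genes were called. None was called between fovea and periphery, where 44.1% of all genes were, between fovea and perimacula (0.0447% of all genes), fovea and nasal location (0.361%), perimacula and nasal location (3.07%) or perimacula and periphery (34.9%). With an unadjusted p under 0.05 there were 1, 0, 3, 1 and 0 of the 8 genes in these comparisons, and DESeq2 called 0, 0, 0, 0 and 0. CNGB3 was 2.31-fold higher at the fovea than at the periphery, a difference that was not called in the fit with the animal (log2 fold change 1.21 ± 0.52, adjusted p = 0.0834) and was called with the eye as a block (1.45 ± 0.51, adjusted p = 0.0498). Without the right eye of RM03, CNGB3 and SLC24A2 were called higher at the fovea (1.91 and 1.82, adjusted p = 0.0136 and 0.0138). Between the nasal location and the periphery, where 44.6% of all genes were called, CNGB3 was 2.703-fold higher at the nasal location (log2 fold change 1.43 ± 0.47, adjusted p = 0.0231) and CNGA3 was 2.27-fold higher at the periphery (log2 fold change of nasal location over periphery −1.18 ± 0.39, adjusted p = 0.0256). CNGA3 was at 0.965, 0.983, 1.27 and 1.403 CPM in the nasal punches and 2.67, 2.29, 3.26 and 1.89 at the periphery, with no overlap. Both calls were lost when certain single eyes were left out, while the direction of the log2 fold changes stayed. CNGB3 was not called without the left eye of RM03 (log2 fold change 1.14, adjusted p = 0.0685). The same held without the right eye of RM04 (1.27, adjusted p = 0.107) or its left eye (1.62, adjusted p = 0.0572). CNGA3 was not called without the right (−1.07, adjusted p = 0.0839) or left eye of RM03 (−1.15, adjusted p = 0.0879). The rod marker mean of these libraries ran from 1.76 to 3.93 log2 CPM at the nasal location and from 3.23 to 6.18 at the periphery, and its part in the level of CNGA3 was not tested.

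The RPE/choroid library of the fovea from the right eye of RM04 stood apart. In foveal RPE/choroid, ARR3 was at 3.56, 2.76, 54.5 and 10.2 CPM, GNGT2 at 4.08, 4.66, 58.8 and 12.8 and GRK7 at 0.519, 0.446, 3.37 and 0.466. The third library was the highest in each, and its rod marker mean was 5.46 log2 CPM, against 1.49 to 3.17 in the other 3. Whether the change from fovea to periphery differed between the tissues was tested as an interaction over all 32 libraries. CNGA3 was the gene called, with a log2 fold change of fovea over periphery that was 1.71 ± 0.39 larger in retina than in RPE/choroid (adjusted p = 0.000792), where 43.5% of all genes were called. Without the library that stood apart, the difference was 2.36 for CNGA3 (adjusted p = 2.52e-07), and GNGT2 (1.75, adjusted p = 0.0111), GRK7 (1.85, adjusted p = 0.0127) and SLC24A2 (1.80, adjusted p = 0.0337) were called as well. That library was left out after its values were seen, and it held the highest foveal RPE/choroid level of each of these genes. Leaving it out raises the difference by itself, so that these calls show the dependence on that library and are no further support. For fovea against perimacula and fovea against nasal location none of the 8 genes was called with edgeR or DESeq2, 0 and 0 had an unadjusted p under 0.05, and 15.2% and 23.5% of all genes were called. Without that library CNGA3 was called for the perimacula (1.13, adjusted p = 0.00817), a call with the same limit. All differences between the tissues at the fovea described above remained called without it.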

How the data were processed

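Poly-A-selected RNA was sequenced, and the authors quantified the reads of each lane against Mmul_8.0.1 with Salmon 0.13 and tximport (length-scaled). The deposited columns hold estimated counts per gene, although they are named as TPM: their lane totals differed, from 7932259 to 39439054. The 136 lanes were summed to 32 libraries and rounded, and 10 repeated entries were dropped. The depth allows levels well under 1 CPM to be counted, but does not tell from which tissue such RNA came.

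Tests used edgeR 4.0.16 in R 4.3.3 (quasi-likelihood, TMM, genes kept by filterByExpr with min.count 10), with the animal as covariate and Benjamini-Hochberg adjustment. They were checked on simulated data that held no difference between animals or eyes, so that the check does not cover that part of the design. In each tissue the fovea, perimacula and periphery were fitted together, all 4 locations were fitted for comparisons with the nasal one, and both tissues were fitted together for differences between them. The study's methods used DESeq2, run here as an alternative (1.42.0). Log2 CPM and ratios used a prior count of 2. By their labels, replicates of a number are punches of the same eye, so the numbers pair the samples. Deviations from the group means correlated at 0.561 within an eye, 0.555 between fellow eyes and −0.559 between animals in retina (0.387, 0.403 and −0.395 in RPE/choroid). These values do not tell an eye from its fellow. Deviations cancel within a group, so that the negative values between animals follow from the positive ones. No 2 libraries of a group differed by less than 4.32 times the variance of counting.

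The members and lists were chosen with earlier results of these data known. Named genes are the 8 members, up to 2 genes with the largest change in each direction of each other list, the pairs, and the 5 most similar genes. OPN1SW, OPN1MW, OPN1LW, PDE6H and GNAT1 were not analysed here. Further software was Python 3.11.15, numpy 2.4.6, pandas 2.3.3 and matplotlib 3.10.9.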

Additional observations from a re-analysis of the deposited data

Results flagged for a closer look

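In foveal RPE/choroid the library from the right eye of RM04 was far above the other 3 for ARR3 (54.5 CPM), GNGT2 (58.8 CPM) and GRK7 (3.37 CPM). In RPE/choroid of the right eye of RM03, ARR3 stood apart at the perimacula (22.5 CPM) and GNAT2 at the periphery (4.85 CPM). The rod marker mean was the highest of the 4 eyes in each of these 3 libraries, at 5.46, 3.27 and 6.18 log2 CPM, and its part in these values was not tested. Of 64 groups of 4 eyes examined, 5 had such a library, and no retina group did. For independent, normally distributed values the rate would be about 1 in 20. The genes share libraries and the eyes come from 2 animals, so that this rate is no test of the 5.

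The change of CNGA3 from fovea to periphery differed between the tissues, with a log2 fold change 1.71 larger in retina than in RPE/choroid in the interaction test (adjusted p = 0.000792). Leaving out each eye in turn gave 1.49 to 2.24.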

How the results depend on the processing

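The count of called genes among the 8 kept within 1.5 times its reported value in every retina comparison and in every comparison between the tissues at a location, under DESeq2, RLE normalization, other filters on low counts, other covariates, other choices of the fitted libraries and the loss of any eye. A filter of 10 counts in every library removed PDE6C from the fit of both tissues. In RPE/choroid, 0 genes were called between fovea and periphery, 1 (CNGB3) with the eye as a replicate block, 1 with all 4 locations fitted, and 0 to 2 when each eye was left out. The eye block changed no other count. Between perimacula and nasal location 1 gene (CNGB3) was called when those libraries alone were fitted, against 0. Between nasal location and periphery 2 were called, 1 without a covariate and 0 to 2 when each eye was left out, and with those libraries alone CNGA3 and GNGT2 were called and CNGB3 was not. The count of genes whose change from fovea to periphery differed between tissues was 1, and 1 to 3 when each eye was left out. Without the foveal RPE/choroid library of the right eye of RM04, left out after the data were seen, it was 4, and 1 in place of 0 for fovea against perimacula. The log2 fold change of ARR3 between fovea and periphery was −0.049, and ran from −0.073 to 0.015 when each eye was left out. The mean of the 8 genes was 1.10 log2 units higher at the fovea than at the periphery, and 0.88 without SLC24A2 and GNGT2. The median cone to rod ratio stayed within its spread. At 9 to 350 estimated counts in RPE/choroid, GNAT2, PDE6C, CNGA3, GRK7 and SLC24A2 were measured less precisely there than in retina. The causes of these changes were not tested.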
